A study of Homo sapiens with 6 samples.

Results

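The broad MYC domains are the 319 intervals of 3000 bp or more among 9901 intervals at which MYC was found by chromatin immunoprecipitation sequencing (ChIP-seq) in both libraries of cells given conditioned medium. They are 3.22% of these intervals and hold 8.54% of their summed length. The cells were MIAPaCa2, a human pancreatic ductal adenocarcinoma line, starved of serum for 48 hours in DMEM, a basal culture medium. For a further 3 hours they received either conditioned medium from primary cancer-associated fibroblasts, made without serum (CM), or fresh DMEM without serum. An antibody to MYC was used on 2 libraries per medium, called here CM 1, CM 2, DMEM 1 and DMEM 2, and 2 input libraries were not used here. All 4 libraries come from 1 cell line and share the starvation, and the labels name no separate cultures for the paired libraries of a medium, so the spread between these may be technical.

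MYC binds DNA as a dimer with MAX, with the highest affinity for the E-box CACGTG, and is found at most active promoters when it is abundant. It is known for raising the expression of genes for ribosome production, protein synthesis, metabolism and the cell cycle, and its level responds to growth factor signals. A ChIP-seq peak is the stretch over which immunoprecipitated fragments pass the caller's threshold, so its width depends on how far the factor spreads, on how strong the signal is and on the depth of the library. Broad occupancy is often seen at strongly transcribed genes, where several binding sites and open chromatin lie close together.

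The members were chosen by width in CM alone. The interval spans the overlapping CM 1 and CM 2 peaks and carries the mean of their scores, where the score is the authors' value for a peak. Scores of peaks serve here only for ranks and filters within 1 list, and the mean ranks the CM intervals. Because CM widths fixed the members, a greater width in CM than in DMEM is given as a description and was not tested. Just inside the threshold was the interval at the noncoding gene LOC105372817, with 3004 bp. Just outside it were an interval at chr22:30255594-30258590 with 2997 bp and the interval at LDHA, the gene for lactate dehydrogenase A, with 2996 bp. DMEM 1 and DMEM 2 peaks covered 83.2% and 57.0% of the interval at LOC105372817. The same shares were 0% and 24.7% on chromosome 22 and 28.4% and 38.0% at LDHA, so these intervals next to the threshold ranged from little to much DMEM coverage.

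The breadth rests largely on CM 1. That library has a peak of 3000 bp or more at 283 of the 319 domains, and CM 2 has one at 28. Both CM libraries have such a peak at 23 domains, and neither has one at 31, where shorter overlapping peaks join. The 4 lists hold 15304 peaks in CM 1, 12797 in CM 2, 4657 in DMEM 1 and 7652 in DMEM 2, with median widths of 691, 593, 430 and 431.5 bp. Of all peaks, 1.85% reach 3000 bp in CM 1, 0.219% in CM 2, 0.193% in DMEM 1 and 0.0131% in DMEM 2. CM 2 is therefore nearer to DMEM 1 than to CM 1 in its share of peaks this wide. The read depth of the libraries is unknown, and the part of depth or of immunoprecipitation yield in the widths was not tested. Nor can a peak list tell fewer cells with MYC bound from less MYC bound per cell.

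The sequences below show DNA inside a few of these domains, before gene starts and not always under a peak of each library. Of the 338 protein-coding genes with an end at a domain, 271 have an entry among the RefSeq promoters of GRCh38.p14, which run from 250 bases before a gene's start to 50 after it. The 250 bases before the start are printed for 6 genes on which the results below turn. RAN has the domain most fully covered in DMEM, MNT is the member of the MYC network, EIF4G1 carries paired E-boxes, PTMA and HES1 are among the widest domains, and IER2 is an immediate-early gene whose domain is covered little in DMEM. Lower case is 5′ to 3′ on the strand of the gene, and capitals mark CACGTG, which reads the same on both strands.
RAN, chr12:130871816-130872065, plus strand: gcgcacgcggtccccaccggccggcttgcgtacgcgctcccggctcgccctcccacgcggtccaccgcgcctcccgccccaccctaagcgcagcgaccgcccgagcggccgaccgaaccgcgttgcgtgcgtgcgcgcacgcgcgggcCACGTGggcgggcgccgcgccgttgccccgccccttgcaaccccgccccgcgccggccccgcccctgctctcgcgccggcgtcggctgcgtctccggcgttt
MNT, chr17:2401061-2401310, minus strand: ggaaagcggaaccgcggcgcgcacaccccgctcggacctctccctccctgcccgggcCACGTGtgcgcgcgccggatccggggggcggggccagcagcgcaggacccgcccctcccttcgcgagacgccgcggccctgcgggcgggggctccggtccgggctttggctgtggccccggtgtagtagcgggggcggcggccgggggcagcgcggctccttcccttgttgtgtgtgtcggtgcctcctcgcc
EIF4G1, chr3:184314356-184314605, plus strand: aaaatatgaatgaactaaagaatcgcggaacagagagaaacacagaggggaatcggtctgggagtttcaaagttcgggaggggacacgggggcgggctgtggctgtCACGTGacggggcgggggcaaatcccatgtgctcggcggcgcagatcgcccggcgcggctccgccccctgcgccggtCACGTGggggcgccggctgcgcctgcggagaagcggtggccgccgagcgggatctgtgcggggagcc
PTMA, chr2:231708275-231708524, plus strand: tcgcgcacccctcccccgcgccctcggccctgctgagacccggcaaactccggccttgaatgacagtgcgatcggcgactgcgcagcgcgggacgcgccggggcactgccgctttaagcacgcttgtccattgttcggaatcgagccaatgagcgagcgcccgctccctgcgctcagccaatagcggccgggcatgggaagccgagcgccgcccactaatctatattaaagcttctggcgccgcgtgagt
HES1, chr3:194135898-194136147, plus strand: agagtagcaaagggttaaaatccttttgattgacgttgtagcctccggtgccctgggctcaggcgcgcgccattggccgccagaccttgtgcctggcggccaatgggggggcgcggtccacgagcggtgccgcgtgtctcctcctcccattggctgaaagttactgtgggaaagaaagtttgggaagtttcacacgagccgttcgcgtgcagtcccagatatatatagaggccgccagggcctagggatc
IER2, chr19:13150161-13150410, plus strand: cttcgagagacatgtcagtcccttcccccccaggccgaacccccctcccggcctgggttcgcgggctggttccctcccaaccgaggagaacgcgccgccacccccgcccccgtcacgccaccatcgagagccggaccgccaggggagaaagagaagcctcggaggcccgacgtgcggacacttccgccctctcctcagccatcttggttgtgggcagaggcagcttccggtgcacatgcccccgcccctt
The E-box begins 102 bases before the start in RAN and 193 bases before it in MNT. In EIF4G1 one begins 144 bases and one 67 bases before this start, which is 1 of the 2 EIF4G1 starts inside the domain. No CACGTG stands in the windows of PTMA, HES1 and IER2, which says only that these letters are not there. The printed windows of PTMA and IER2 lie outside the DMEM 1 peaks of their domains, and that of HES1 outside the DMEM 2 peaks.

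Over all promoters inside the domains, 70 of 380 annotated starts (18.4%) have CACGTG in their window of 300 bases, beside 12.9% of 7067 starts in the other CM intervals and 8.34% of all 22199 protein-coding promoters of the table. The domains in the top 25% by DMEM coverage have it at 31 of 131 starts (23.7%), and those in the bottom 25% at 11 of 67 (16.4%). The median GC content of the windows is 67.3% at domains, 67% at the other CM intervals and 62.3% over the whole table. The median number of CG dinucleotides is 29, 28 and 21 in the same order. Windows at domains thus resemble those at other CM intervals in base composition, and these shares were not tested, since neighbouring starts overlap in sequence.

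The domains had MYC peaks in DMEM far more often than CM intervals in general. A peak of both DMEM libraries overlaps 289 of the 319 domains (90.6%), against a background of 33.8% over all 9901 CM intervals. DMEM 1 has a peak at 291 domains and DMEM 2 at 314, where the backgrounds are 36.0% and 61.9%. Only DMEM 2 has a peak at 25 domains and only DMEM 1 at 2. No DMEM peak overlaps 3 domains, while 35.8% of all CM intervals have none. The share with both DMEM peaks follows the width of the interval: it is 5.68% under 1000 bp, 38.7% from 1000 to 2000 bp, 81.8% from 2000 to 3000 bp, 90.6% from 3000 to 4000 bp and 90.7% from 4000 bp up. The domains lie at the flat upper end of that series.

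MYC occupancy at the domains was narrower in the DMEM lists. The widest peak at a domain has a median of 3258 bp in CM 1, 2168 bp in CM 2, 1280 bp in DMEM 1 and 1207 bp in DMEM 2, over the domains with a peak in that library. The interquartile range runs from 3087.5 to 3651.5 bp in CM 1, from 1746.5 to 2606 bp in CM 2, from 690.5 to 1912 bp in DMEM 1 and from 719.75 to 1668.5 bp in DMEM 2. CM 2 and DMEM 1 overlap at the upper DMEM values, and the DMEM lists lie close together. At 282 domains both CM peaks are wider than both DMEM peaks, counting a missing DMEM peak as 0. DMEM 1 is wider than CM 2 at 33 domains and DMEM 2 is wider than CM 2 at 7, whereas no DMEM peak is wider than the CM 1 peak of its domain. The gap between the CM libraries is itself large, since CM 1 is wider than CM 2 at 306 domains. The 13 exceptions include SOX12, with 2445 bp in CM 1 and 4442 bp in CM 2, and GATA2-AS1, with 2234 and 3932 bp.

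**Figure D1:**
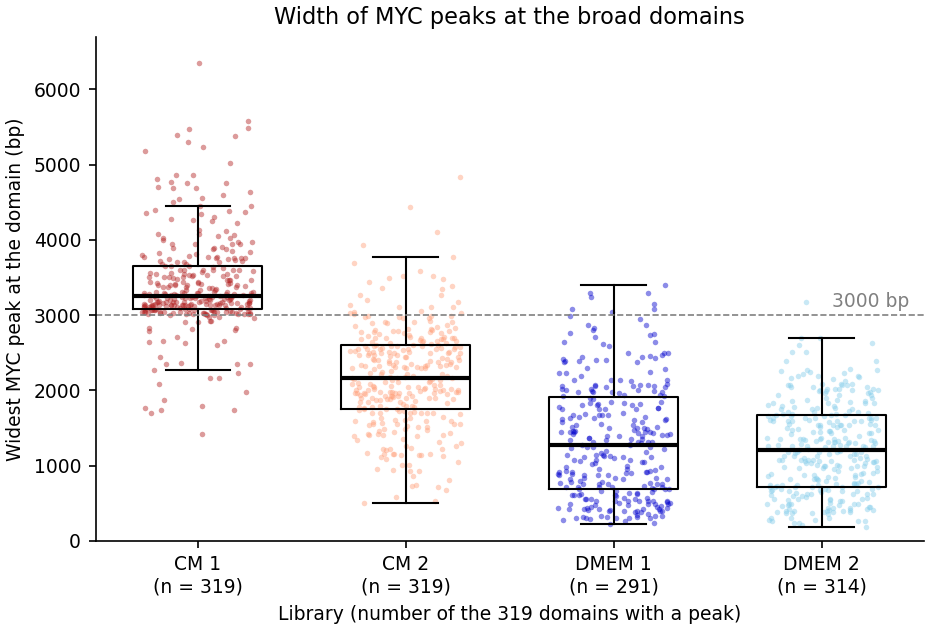
Widest MYC peak at each of the 319 domains, in bp, by library (1 point a domain; box, median and quartiles; whiskers, the most extreme values within 1.5 times the box height; domains without a peak left out). The medians are 3258 bp in CM 1 and 2168 bp in CM 2, and DMEM 1 and DMEM 2 lie together at 1280 and 1207 bp.

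The widths can also be read with 1 CM library choosing by its peaks of 3000 bp or more and the other CM library set beside DMEM. This choice asked for no peak in any other library, and the chosen peak took the place of the domain. Over the 283 CM 1 peaks so chosen, the median widest overlapping peak is 2180 bp in CM 2. In DMEM 1 and DMEM 2 it is 1248 and 1262 bp. All 283 overlap a CM 2 peak, while 261 overlap a DMEM 1 peak and 280 a DMEM 2 peak. CM 2 is wider than both DMEM libraries at 247 of them (87.3%), with a missing DMEM peak counted as narrower. Over the 28 CM 2 peaks so chosen, the median is 3878.5 bp in CM 1, 1443 bp in DMEM 1 and 1647 bp in DMEM 2. CM 1 is wider than both DMEM libraries at all 28. The CM lists hold more and wider peaks in general, and peaks are not replicates of a condition. The counts therefore describe these libraries and support no difference between the media.

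In coverage, DMEM 1 peaks take up a median of 43.1% of the length of a domain and DMEM 2 peaks 42.8%, beside 100% for CM 1 and 73.4% for CM 2. The mean of the DMEM shares has a median of 44.8%, with an interquartile range of 26.1% to 57.5% and a highest value of 81.8%. It is above 75% at 9 domains, above 50% at 122 and below 25% at 76. The DMEM libraries rank the domains alike, with a Spearman correlation of 0.76 between their shares over 319 domains, and their widest peaks correlate at 0.79. The same correlation of widest peaks is 0.15 between CM 1 and CM 2, where the choice by width compresses the range of CM 1. Between CM 2 and the DMEM lists it is 0.52 for DMEM 1 and 0.58 for DMEM 2. These values share libraries and caller and carry no test.

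At many domains the DMEM signal lies in separate pieces. DMEM 1 has at least 2 separate peaks at 159 domains (49.8%) and DMEM 2 at 149 (46.7%), against backgrounds of 8.22% and 10.0% over all CM intervals. In CM 1 the same holds for 37 domains, and in CM 2 for 149, so CM 2 is split as often as DMEM 2. Longer intervals have more room for separate peaks, and the part of length in these shares was not tested. The backgrounds also run over intervals without a DMEM peak, since 36.0% of all have a DMEM 1 peak and 61.9% a DMEM 2 peak. The most pieces stand at TRERF1, a gene for a transcriptional regulator, where 1 CM 1 peak of 5231 bp and 3 CM 2 peaks meet 4 DMEM 1 and 5 DMEM 2 peaks. The domain at SOX12, for a transcription factor of the SOX family, has 2 CM 1 peaks and 1 CM 2 peak, against 3 and 5 in DMEM 1 and DMEM 2.

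Against their own list the DMEM peaks at domains remain wide. The widest one has a median width percentile of 90.2 in DMEM 1 and 93.4 in DMEM 2, whereas DMEM peaks at the other CM intervals stand at 57.1 and 56.9. Most of those intervals are short. At CM intervals of 2000 to 3000 bp with a peak in both DMEM libraries the median is already 76.7 in DMEM 1 and 86.1 in DMEM 2. Among the widest 10% of their list are 147 DMEM 1 peaks and 180 DMEM 2 peaks at domains. By the highest score of the overlapping peaks the domains stand at a median percentile of 94.7 in CM 1, 92.8 in CM 2, 87.9 in DMEM 1 and 88.4 in DMEM 2. Taking the widest or highest of several peaks favours long intervals. The score lies below the median of its list at 0, 11, 40 and 34 domains in the same order. In CM the width ranks restate the rule, which used none of the DMEM values.

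Relative to CM 1, the DMEM peaks are narrower at intervals of every class. Where both DMEM libraries have a peak, the median ratio of the widest DMEM 1 peak to the widest CM 1 peak is 0.428 under 1000 bp, 0.318 from 1000 to 2000 bp, 0.352 from 2000 to 3000 bp, 0.40 from 3000 to 4000 bp and 0.272 from 4000 bp up. For DMEM 2 the ratios are 0.514, 0.428, 0.422, 0.394 and 0.273, and for CM 2 they are 0.836, 0.775, 0.731, 0.690 and 0.529. At domains under 4000 bp the DMEM ratios lie near those of narrower intervals, and from 4000 bp up all 3 libraries fall further behind CM 1. The ratios were not tested, and choosing on the CM interval favours a wide CM 1 peak in the upper classes.

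**Figure D2:**
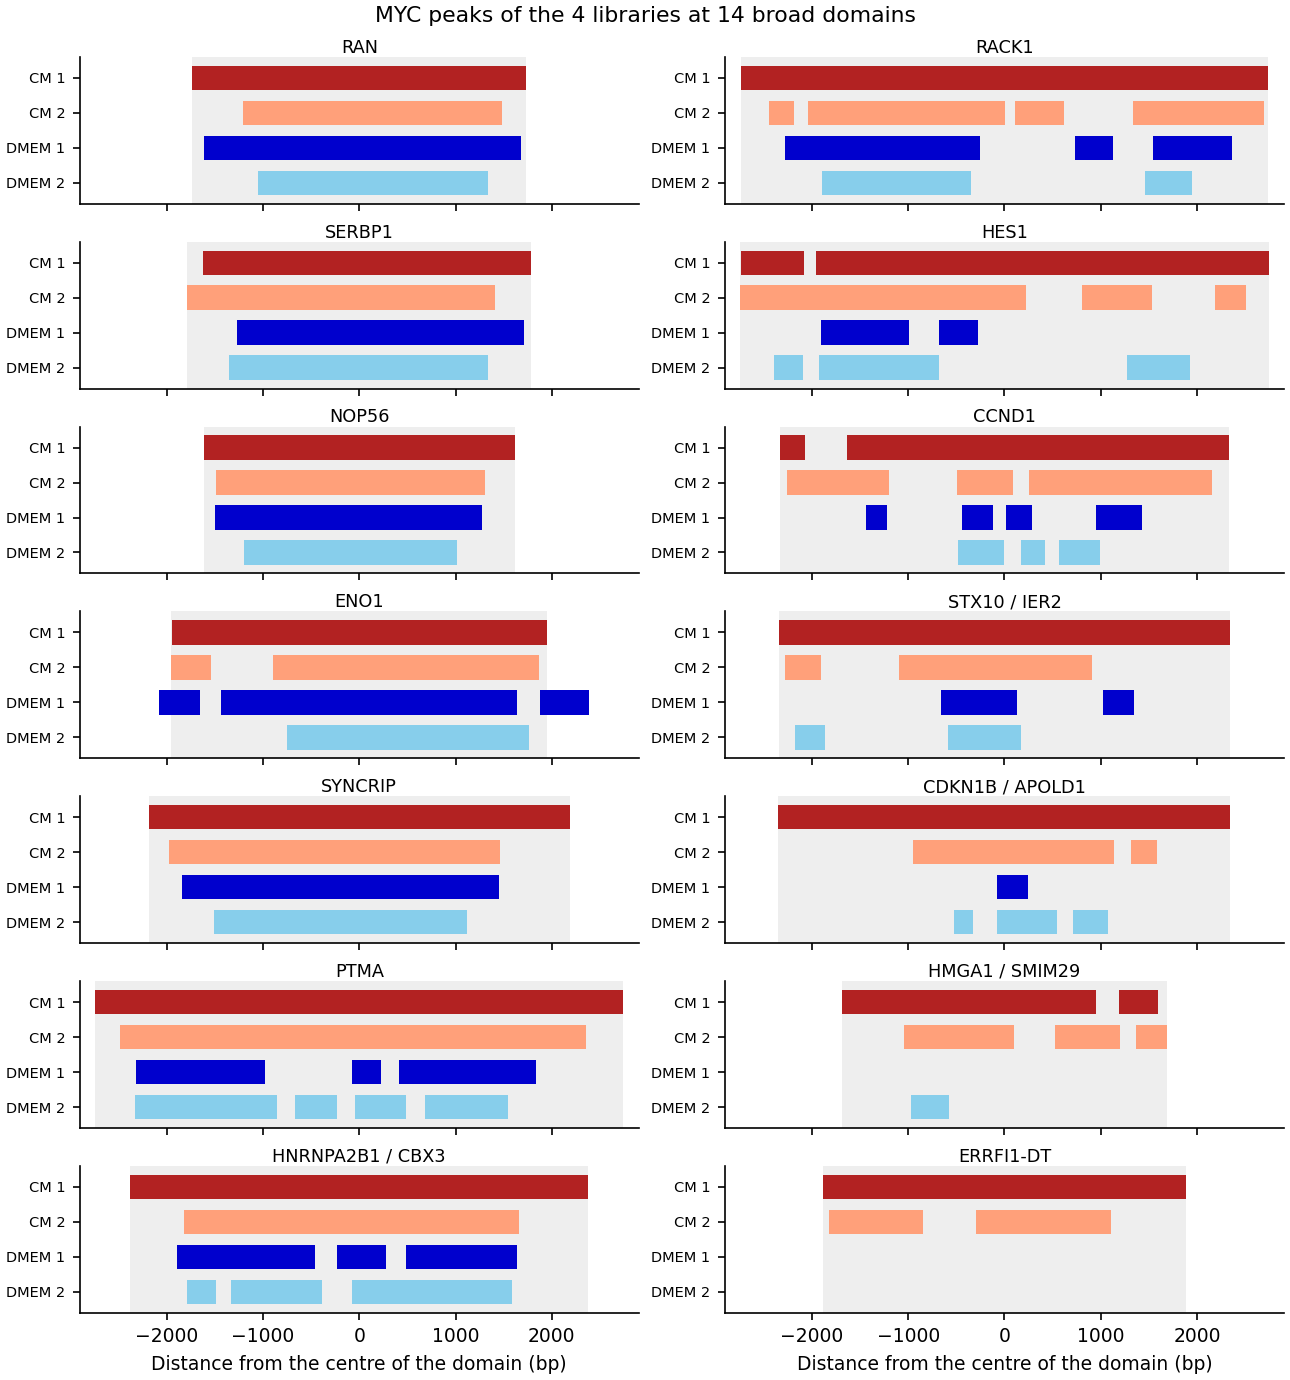
MYC peaks of CM 1, CM 2, DMEM 1 and DMEM 2 at 14 named domains, by distance from the centre of the domain in bp (grey, the domain). RAN has 1 peak in each library, CCND1 has 4 and 3 short DMEM peaks, and ERRFI1-DT has none in DMEM.

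Coverage in DMEM went with the score in CM. The Spearman correlation between the mean CM score and the mean DMEM share is 0.79 over 319 domains, beside -0.13 for width and share and -0.14 for width and score. In the bottom 25% of domains by score, from 57.2 to 167, the median DMEM share is 17.2% and 53 of 80 domains have a peak in both DMEM libraries. In the top 25%, from 589.5 to 2423.5, the share is 61.8% and all 80 have one. The classes between have 37.2% and 49.9%. The widest CM 1 peak is alike in the bottom and the top class, at 3184 and 3300 bp, and the CM 2 peak is 1518 and 2454.5 bp. With missing peaks counted as 0, the medians are 395 and 2075 bp in DMEM 1 and 486 and 1735.5 bp in DMEM 2. The like CM 1 widths are set by the rule, which admitted most members through CM 1. In CM 2, DMEM 1 and DMEM 2 the low-scoring domains had the narrower peaks. The mean score runs over all joined CM peaks, so low-scoring pieces lower it. NEAT1 joins 5 peaks and has a mean of 157.2, with highest peak scores of 292 in CM 1 and 296 in CM 2. A low mean can thus go with a split CM signal, and the part of this in the relation was not tested. Scores and widths come from the same signal and libraries, and the part of depth in this relation was not tested.

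**Figure D3:**
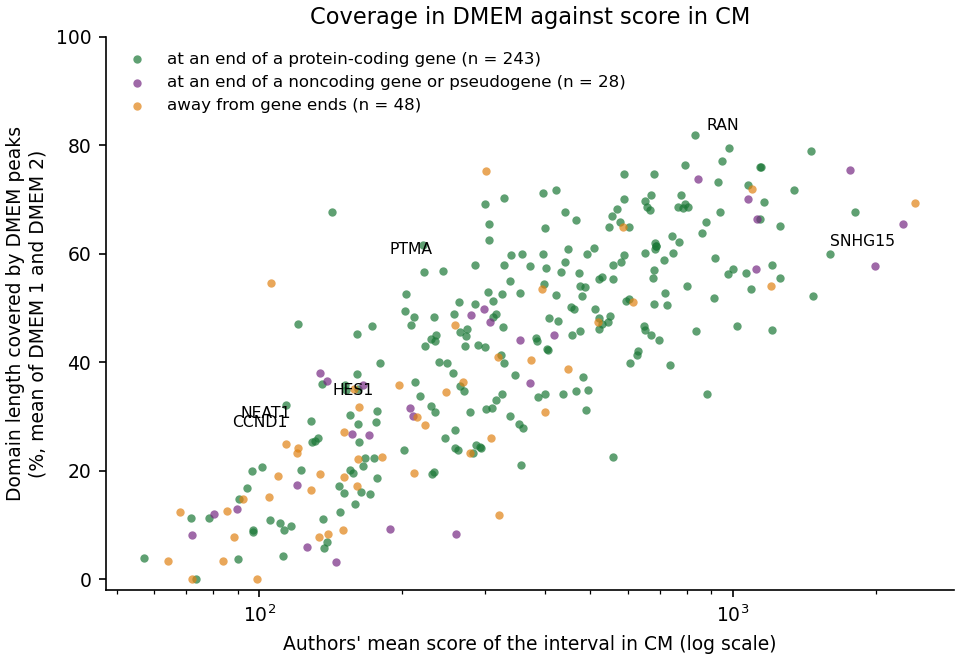
Mean DMEM share of each domain in % (mean of DMEM 1 and DMEM 2) against the authors' mean score of its CM interval (log scale), with 243 domains at an end of a protein-coding gene, 28 at an end of a noncoding gene and 48 away from gene ends. The share climbs with the score (Spearman 0.79), and domains away from gene ends fill much of the lower left.

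By position, 243 domains (76.2%) lie within 1000 bp of an outermost end of a protein-coding gene, against 70.8% of all CM intervals. A long interval reaches more ends by its length alone, and by the midpoint the share is 64.3%, against 66.6% of all. Pooled, the domains are thus close to the background of all CM intervals, most of which are shorter. By width the midpoint share rises and then falls. It is 59.0% under 1000 bp, 70.7% from 1000 to 2000 bp and 75.3% from 2000 to 3000 bp. From 3000 to 4000 bp it is 67.9%, and from 4000 bp up 46.3%. By the edge the shares of the upper 3 classes are 80.9%, 78.5% and 64.8%. The fall with width among wide intervals was not tested. Of the other domains, 28 lie at an end of a noncoding gene or pseudogene, 39 inside a gene and 9 between genes. Those between genes lie 3426 to 177596 bp from the nearest protein-coding gene. More than 1 protein-coding gene has an end at 90 domains, and which of them a domain belongs to cannot be told apart, as with IER2 and STX10, CDKN1B and APOLD1 or HMGA1 and SMIM29. Chromosome 1 carries 32 domains, chromosome 17 carries 29, chromosome 2 carries 26 and chromosome 19 carries 25, and chromosome 13 carries 1. Of neighbouring domains, 6 pairs lie within 10000 bp of each other. Neither count was made for all CM intervals, so they show no excess or lack on any chromosome and no clustering.

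Position went with coverage in DMEM. The median DMEM share is 47.0% at protein-coding ends, 36.4% at noncoding ends and 24.5% away from ends, and a peak in both DMEM libraries stands at 228 of 243, 23 of 28 and 38 of 48 domains. The median CM score falls in the same order, with 372.5, 235.75 and 162. Away from gene ends the median widest peak is 3285.5 bp in CM 1, 1729 bp in CM 2, 681 bp in DMEM 1 and 806 bp in DMEM 2. At protein-coding ends it is 3253, 2316, 1293 and 1297 bp in the same order. The CM 1 widths follow from the rule, and in the other 3 libraries the medians are lower away from gene ends. The differences were not tested apart from the score.

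Around a single start the broad signal reaches to both sides. At the 73 domains that hold 1 annotated start, the domain reaches a median of 1700 bp upstream and 1710 bp into the gene. A peak covers the start itself in 73 domains in CM 1, 70 in CM 2, 40 in DMEM 1 (54.8%) and 52 in DMEM 2 (71.2%). At 1000 bp into the gene, the share of domains under a peak is 87.7% in CM 1, 61.6% in CM 2, 39.7% in DMEM 1 and 39.7% in DMEM 2. At 1000 bp upstream it is 83.6%, 58.9%, 37.0% and 30.1%. By 2000 bp into the gene it is 34.2%, 15.1%, 6.85% and 8.22%. The DMEM libraries lie below both CM libraries at each of these positions, on both flanks of the start. CM peaks define the domains, so high CM coverage follows from the rule, and the gap was not tested. DMEM 1 has a peak at 67 of the 73 domains and DMEM 2 at 72, and a domain without one counts as uncovered.

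**Figure D4:**
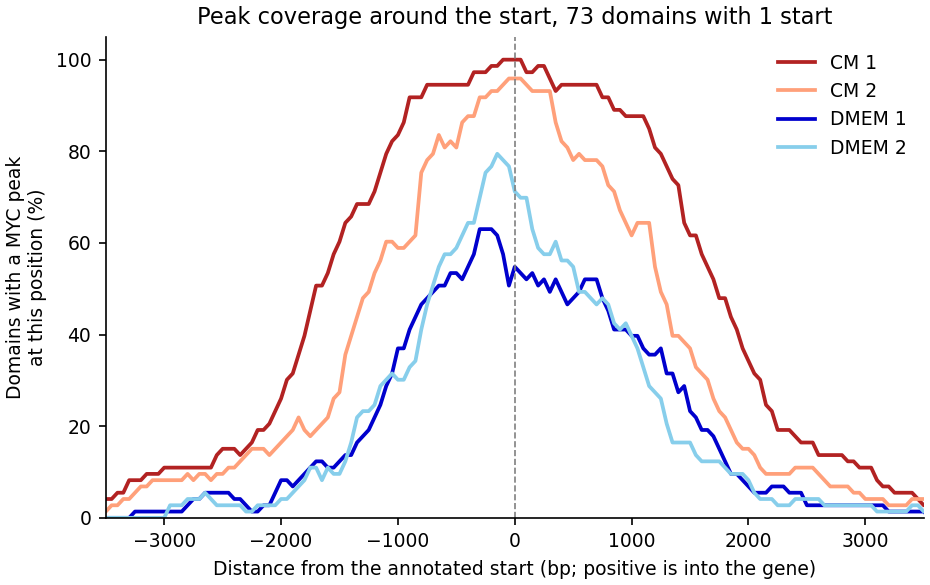
Share of the 73 domains with 1 annotated start that lie under a MYC peak, in %, by distance from the start in bp (positive into the gene), for CM 1, CM 2, DMEM 1 and DMEM 2. At the start the values are 100%, 95.9%, 54.8% and 71.2%, and at 2000 bp into the gene they are 34.2%, 15.1%, 6.85% and 8.22%. CM peaks define the domains, so high CM coverage follows from the rule.

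Of all 20037 protein-coding genes 1.69% have an end at a domain, and 39.0% have one at any CM interval. Of the 7808 at a CM interval, 4.33% are at a domain. Of 78 genes for cytosolic ribosomal proteins, 72 are at a CM interval and 16 at a domain. All 16 domains have a peak in both DMEM libraries, which is near the 90.6% of all domains. Their median DMEM share is 54.5%, beside 44.8% over all domains. RPL10, for a protein of the large subunit, has widest peaks of 3250 bp in CM 1, 2474 bp in CM 2, 3040 bp in DMEM 1 and 1710 bp in DMEM 2. RPL37, also of the large subunit, has 3526, 2326, 1939 and 1634 bp in the same order. The smallest DMEM shares of the list are 19.6% at RPL28, 22.6% at RPL36 and 34.2% at RPL23A. RPL28 has 3257 and 2526 bp in CM 1 and CM 2 against 260 and 426 bp in DMEM 1 and DMEM 2, and RPL36 has 3355 and 1754 bp in CM 1 and CM 2 against 486 and 741 bp in DMEM 1 and DMEM 2. RACK1, a scaffold on the small subunit, has 5475 and 2054 bp in CM 1 and CM 2 against 2021 and 1543 bp in DMEM 1 and DMEM 2.

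Of 54 ribosome biogenesis genes 50 are at a CM interval and 6 at a domain, with a median DMEM share of 60.8%. NOP56, a core protein of box C/D small nucleolar particles, has 1 peak in each library, of 3234 bp in CM 1, 2796 bp in CM 2, 2767 bp in DMEM 1 and 2216 bp in DMEM 2. The values at WDR43, a processome protein, are 3395, 2673, 2864 and 2010 bp. DMEM 1 exceeds CM 2 at WDR43, and DMEM 2 is the narrowest at both genes. NOLC1, a nucleolar chaperone of small nucleolar particles, has a high CM score of 1476 and a DMEM share of 52.2%. Of 62 translation factors and aminoacyl-tRNA synthetases 54 are at a CM interval and 9 at a domain, with a median share of 57.7%. EIF3B, a subunit of the initiation factor that joins the small subunit to mRNA, shares its domain with SNX8 and has 3125 and 2604 bp in CM 1 and CM 2 against 2747 and 2187 bp in DMEM 1 and DMEM 2. EIF4G1, the scaffold of the cap-binding complex whose promoter is printed above, has 3703 and 2363 bp in CM 1 and CM 2 against 2430 and 1688 bp in DMEM 1 and DMEM 2. PABPC1, the cytoplasmic poly(A)-binding protein, has the smallest share of the list, at 28.6%.

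Noncoding hosts of small nucleolar RNAs belong to the same machinery, since the RNAs in their introns guide the modification of ribosomal RNA. The list of 27 genes also holds RMRP and RPPH1, which are not such hosts. Of the 27 genes 24 are at a CM interval and 6 at a domain, namely SNHG3, SNHG7, SNHG9, SNHG15, SNHG16 and SNHG17. The background is 0.414% of all 39642 noncoding genes and 5.83% of the 2815 at a CM interval. All 6 domains have peaks in both DMEM libraries, as do 90.6% of all domains, and their median share is 58.5%. SNHG15 has the second highest score of all domains, 2287.5, and widest peaks of 3679 and 2407 bp in CM 1 and CM 2 against 2591 and 2000 bp in DMEM 1 and DMEM 2. SNHG17 has a score of 1600 and 3331 and 2296 bp in CM 1 and CM 2 against 2294 and 1725 bp in DMEM 1 and DMEM 2. SNHG9 lies beside RPS2 and SNHG3 beside RCC1, so each pair shares 1 domain.

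RNA-binding and splicing proteins supply 13 domains of 68 genes, 61 of them at a CM interval, with a median DMEM share of 58.8%. All 13 have peaks in both DMEM libraries, as do 90.6% of all domains. SYNCRIP, a nuclear ribonucleoprotein, has 1 peak in each library, of 4370 bp in CM 1, 3437 bp in CM 2, 3292 bp in DMEM 1 and 2632 bp in DMEM 2. HNRNPA2B1 shares a bidirectional domain with CBX3, for a heterochromatin protein, with single peaks of 4753 and 3479 bp in CM 1 and CM 2 against 3 peaks in each DMEM library, the widest 1438 and 1661 bp. Coverage there is 65.2% in DMEM 1 and 61.2% in DMEM 2, so most of its length lies under DMEM peaks, in pieces. HNRNPD has the smallest share of the list, 22.3%. Nuclear transport, which carries proteins and ribosomal subunits through the nuclear pore, has 3 domains of 29 genes, 27 of them at a CM interval. RAN, the GTPase that drives this transport, has the most fully covered domain of all, with 3469 and 2690 bp in CM 1 and CM 2 against 3289 and 2388 bp in DMEM 1 and DMEM 2. The DMEM shares at RAN are 94.8% in DMEM 1 and 68.8% in DMEM 2, on either side of the 77.5% in CM 2.

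Of 30 genes for glycolysis, glutamine and amino acid transport 22 are at a CM interval and 6 at a domain, with a median DMEM share of 48.2%. ENO1, for the glycolytic enzyme enolase, has 3903 and 2766 bp in CM 1 and CM 2 against 3080 and 2508 bp in DMEM 1 and DMEM 2. HK2, for the hexokinase of many tumours, has 3016 and 2469 bp in CM 1 and CM 2 against 1244 and 1798 bp in DMEM 1 and DMEM 2. SLC1A5, the glutamine transporter, has 3513 and 2963 bp in CM 1 and CM 2 against 554 and 1267 bp in DMEM 1 and DMEM 2. DMEM breadth thus ranges widely within this list. Of 30 genes for nucleotide and one-carbon synthesis 28 are at a CM interval and 4 at a domain (PPAT, GART, PFAS and RRM2), with a median share of 57.2%. PPAT, the first enzyme of purine synthesis, has 3121 and 2760 bp in CM 1 and CM 2 against 2052 and 2236 bp in DMEM 1 and DMEM 2. Chaperones have 4 of 33 genes at a domain, with 29 at a CM interval and a median share of 53.0%, and mitochondrial proteins 3 of 37, with 34 at a CM interval and a median share of 46.0%.

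Immediate-early and ERK feedback genes, which respond to growth factors within minutes, had the lowest median DMEM share of the 14 lists, 27.6%. Of 58 genes 42 are at a CM interval and 8 at a domain. A peak in both DMEM libraries stands at 7 of the 8 domains, beside 90.6% of all domains. HES1, a repressor best known as a Notch target, has 1 of the widest domains with 5502 bp, and its widest peaks are 4709 and 2974 bp in CM 1 and CM 2 against 911 and 1248 bp in DMEM 1 and DMEM 2. IER2, an immediate-early nuclear protein, has 4692 and 1998 bp in CM 1 and CM 2 against 792 and 763 bp in DMEM 1 and DMEM 2. IER5L has 3073 and 1704 bp in CM 1 and CM 2 against 309 and 373 bp in DMEM 1 and DMEM 2. SPRY4, an inhibitor of receptor tyrosine kinase signalling, has no DMEM 2 peak and 1 DMEM 1 peak of 277 bp, and its CM score of 57.2 is the lowest of all domains. Shares near the 44.8% of all domains stand at ZFP36L1 (45.1%) and VGF (43.3%). ZFP36L2, an mRNA decay factor like ZFP36L1, has the highest of the list, with 3801 and 2626 bp in CM 1 and CM 2 against 2645 and 1995 bp in DMEM 1 and DMEM 2 and a share of 61.4%. Its CM score of 687 is the highest of the 8, whose others lie between 57.2 and 290.2, and the part of the score in the low shares was not tested.

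**Figure D5:**
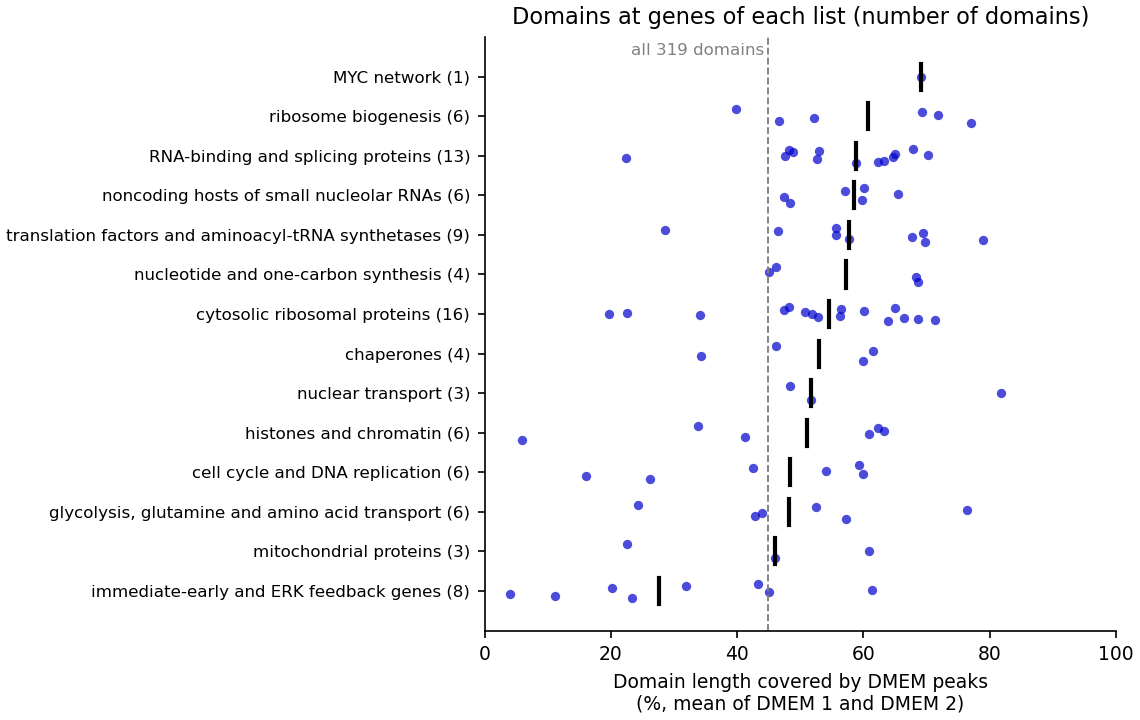
Mean DMEM share in % (mean of DMEM 1 and DMEM 2) of the domains at genes of each of the 14 lists (points, domains; black bar, median of the list; dashed line, median of all 319 domains, 44.8%). The immediate-early and ERK feedback genes have the lowest median, 27.6%, and the ribosome biogenesis genes reach 60.8%.

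Genes of the cell cycle and of chromatin fell on both sides. Of 42 cell cycle and replication genes 31 are at a CM interval and 6 at a domain, with a median DMEM share of 48.3%. CCND1, for cyclin D1, which drives entry into S phase, has 3969 and 1900 bp in CM 1 and CM 2 against 480 and 483 bp in DMEM 1 and DMEM 2, the DMEM signal being split into 4 and 3 peaks. CDKN1B, for the inhibitor p27, has 4694 and 2083 bp in CM 1 and CM 2 against 323 and 625 bp in DMEM 1 and DMEM 2. E2F3, for a transcription factor of the S-phase genes, has 4509 and 3517 bp in CM 1 and CM 2 against 2730 and 1963 bp in DMEM 1 and DMEM 2. Of 39 histone and chromatin genes 29 are at a CM interval and 6 at a domain, with a median share of 51.1%. HMGA1, an architectural chromatin protein high in many carcinomas, has 2633 and 1147 bp in CM 1 and CM 2 against no peak in DMEM 1 and 394 bp in DMEM 2. ANP32B, a histone chaperone, has 4298 and 3687 bp in CM 1 and CM 2 against 1818 and 2166 bp in DMEM 1 and DMEM 2. In the MYC network, 20 of 25 genes are at a CM interval and 1 at a domain. It is MNT, a MAX partner that opposes MYC, with 3641 and 3031 bp in CM 1 and CM 2 against 1359 and 2608 bp in DMEM 1 and DMEM 2.

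The widest domain lies between genes, 88451 bp from SOCS6, at chr18:70418650-70424995. It is a single CM 1 peak of 6346 bp, while the widest peak is 1595 bp in CM 2, 420 bp in DMEM 1 and 560 bp in DMEM 2. NEAT1, the noncoding RNA that builds nuclear paraspeckles, has 5584 and 2053 bp in CM 1 and CM 2 against 604 and 979 bp in DMEM 1 and DMEM 2. In these domains the breadth belongs to CM 1, and the other 3 libraries show separate shorter peaks. PTMA, for the small acidic protein prothymosin alpha, differs in that CM 2 is also broad, with 5486 bp in CM 1 and 4838 bp in CM 2 as 1 peak each. DMEM 1 has 3 peaks at PTMA, the widest of 1418 bp, and DMEM 2 has 4, the widest of 1468 bp. Together they cover 56.0% of the domain in DMEM 1 and 60.0% in DMEM 2.

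The other wide domains are at RAB34 and RPL23A, RACK1, the pseudogene GNAI2P1, TRERF1 and ADAM8, inside WDR25 and LINC01588, and 41105 bp from BCAS1. Their lengths are 5481, 5475, 5378, 5231, 5081, 5298, 5153 and 5188 bp in the order named. DMEM shares of these 8 lie between 18.9% at BCAS1 and 49.4% at TRERF1. Of all 319 domains, 54 reach 4000 bp and 14 reach 5000 bp, with a median of 3371 bp, beside 1207 bp over all CM intervals.

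Besides RAN, the most fully covered domains in DMEM were at SERBP1, EIF3B, NOP56, ENO1 and REPIN1, with mean shares of 79.5%, 78.9%, 77.0%, 76.4% and 76.0%. SERBP1, an mRNA-binding protein associated with ribosomes, has single peaks of 3405 bp in CM 1, 3195 bp in CM 2, 2984 bp in DMEM 1 and 2692 bp in DMEM 2. The domains with a peak in both DMEM lists and the smallest shares were inside TPRG1 (9.10%), at GATA2-AS1 (9.27%), IER5L (11.1%), PTPN12 (11.4%) and ANXA2R-OT1 (12%), and inside PKD1L1 (12.4%). GATA2-AS1, the antisense neighbour of a haematopoietic transcription factor, has a CM 2 peak of 3932 bp, against 296 and 242 bp in DMEM 1 and DMEM 2. Widest peaks at PTPN12, a tyrosine phosphatase, are 2359 and 737 bp in CM 1 and CM 2 against 494 and 209 bp in DMEM 1 and DMEM 2. The 6 most covered domains have CM scores of 791 to 1457, and the 6 least covered have scores of 68 to 189.

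The 30 domains without a peak in both DMEM libraries have a median CM score of 108 and a highest of 320, beside a median of 355 at the other 289. Their median widest peak is 3172.5 bp in CM 1 and 1384 bp in CM 2, beside 3271 and 2291 bp at the other domains. The like CM 1 widths follow from the rule, and the CM 2 median is lower. Protein-coding ends account for 15 of them. The highest score is at DNER, a neuronal Notch ligand, where the domain lies inside the gene and DMEM 2 alone has a peak, of 738 bp. At the deubiquitinase USP3, DMEM 2 covers 63.0% of the domain in 3 peaks, and DMEM 1 has none, so this domain is absent from 1 list only. The 3 domains with no DMEM peak lie inside ERRFI1-DT, a transcript divergent from a feedback inhibitor of EGFR, at TNRC18 (chr7:5419188-5422846), and inside the noncoding gene CASC21. Their widest peaks are 3767 and 1408 bp in CM 1 and CM 2 at ERRFI1-DT, 3037 and 934 bp at TNRC18, and 2661 and 809 bp at CASC21, with CM scores of 98.7, 73.5 and 72.2. All 3 scores are in the bottom 25% of the domains. A second domain at TNRC18, chr7:5423095-5427688, does have DMEM peaks, 3 in DMEM 1 and 1 in DMEM 2, with a mean share of 13.9%.

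Peaks of 3000 bp or more in DMEM are few. DMEM 1 has 9 and DMEM 2 has 1, and all but the DMEM 1 peak at SRSF6 lie at a domain. At SRSF6, for a splicing factor, the DMEM 1 peak has 3063 bp and the CM interval 2796 bp, so that the interval missed the threshold. The DMEM 1 peaks at domains are at ENO1 (3080 bp), GDI2 (3082 bp), RAN (3289 bp), LOC112267936 (3241 bp), SYNCRIP (3292 bp), PVT1 (3154 bp), BCOR (3395 bp) and RPL10 (3040 bp). BCOR, for a corepressor of BCL6, also has the only DMEM 2 peak of this width, 3171 bp. The DMEM common list, built in the same way, has 14 intervals of 3000 bp or more, and 13 of them overlap a domain.

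The highest scores among domains, chosen after their values were seen, stand at an interval 38686 bp from FOXK1 (2423.5), at SNHG15 (2287.5) and at ELFN1-AS1 (1996). The domain near FOXK1, at chr7:4640584-4643609, has widest peaks of 3014 and 2645 bp in CM 1 and CM 2 against 2828 and 1436 bp in DMEM 1 and DMEM 2. It lies away from any gene end and still has a DMEM share of 69.3%. At MIR17HG, also chosen after its values were seen, the domain covers the start of the host gene of the miR-17-92 cluster, a classical MYC target. CM 1 and CM 2 cover 100% and 73.1% of it, and DMEM 1 and DMEM 2 cover 73.3% and 59.5%. Hairpins of 9 miRNAs lie in or partly in domains, among them MIR17, MIR1292 in NOP56, MIR4674 at NOTCH1 and MIR3652 at HSP90B1. Hairpins were not counted over all CM intervals, so this number has no background.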

How the data were processed

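Chromatin immunoprecipitation used an antibody to MYC, and the 4 peak lists and the common lists are the authors' deposited files. Per the submitters' processing notes, reads were processed on GRCh38 with MACS2 2.1.1.20160309, Bowtie2 2.3.4, Trim Galore 0.4.3, Picard 2.9.0 and SAMtools 1.3.1 (listed in no order of use). The sources used here do not give their settings or the control of each list. Each peak carries positions and a whole-number score given by the authors. Peak scores serve only for ranks and filters inside 1 list, and the mean score of the joined CM peaks ranks the CM intervals. Read counts are not among the deposited values, and depth is unknown. In the CM and DMEM common lists every interval spans the overlapping peaks of both libraries and has their mean score, which was checked on all 9901 and 3380 intervals with a tolerance of 0.01 for the score.

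Domains are CM common intervals of 3000 bp or more. An overlap is at least 1 bp. The share covered is the peak length inside the domain over its length, and a domain with no peak counts as 0. A gene is at a domain when an outermost end in RefSeq GRCh38.p14 lies within 1000 bp. Named domains are the 12 widest, the 6 most and 6 least covered in DMEM, 8 without a peak in both DMEM lists, 4 with the most pieces, those next to the threshold, up to 4 per gene list and 6 away from gene ends; further ones are named in the text with the reason. Some items that these rules name are not reported here. The members and lists were chosen with earlier results of these data known. No test was run, and functions were tested on simulated intervals. Python 3.11.15, pandas 2.3.3, NumPy 2.4.6 and SciPy 1.17.1 were used. Of the cell type markers, 0 of 6 ductal, 0 of 1 mesenchymal and 0 of 9 fibroblast genes are at a domain, and 3, 1 and 0 are at a CM interval; binding does not measure expression.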

Additional observations from a re-analysis of the deposited data

How the results depend on the processing

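Of 47 alternative values, 21 stayed within a set limit and 26 moved. The limit was the standard deviation between the DMEM libraries. For the covered share it is only 0.207 percentage points, so small changes count as moved. For the gene-end share and the comparison of 1 CM library with DMEM, it was a 95% binomial confidence interval over domains or peaks. Domains and peaks are not replicates, so that interval served only as a limit and does not measure the spread between libraries. No paired analysis was possible because every result is a description and comes from no test. From the values reported (90.6% of domains with both DMEM peaks, a DMEM share of 44.8%, a width percentile of 92.0, a score percentile of 88.2 and 76.2% at protein-coding ends), a threshold of 2500 bp gave a share of 44.1%, a width percentile of 87.6 and a score percentile of 85.7. At 4000 bp the share was 35.6%, the score percentile 83.6 and the gene-end share 64.8%. Keeping DMEM peaks with a score of at least 50 gave 82.1% with both peaks, a share of 40.8% and percentiles of 89.7 for width and 84.4 for score. Cutting each list to its 4657 best peaks left 284 domains with a peak in both CM lists. Over this smaller set the share was 45.6% and the score percentile 86.8. By the midpoint the gene-end share was 64.3%, and by the widest DMEM peak alone the covered share was 32.5%. Leaving out 1 library at a time gave 91.2% to 100% of domains with a DMEM peak in the libraries left, a share of 42.8% to 64.8%, width percentiles of 90.2 to 95.5, score percentiles of 87.9 to 91.8 and 71.4% to 75.6% at gene ends. The highest share, 64.8%, is without CM 1, when the 28 CM 2 peaks of 3000 bp or more serve as the domains. In alternatives chosen after seeing the data, the share was 58.4% at the 23 domains with 3000 bp in both CM lists. The share of wide CM 1 peaks at which CM 2 is wider than both DMEM libraries, 87.3%, became 95.5% at 4000 bp. It was 100% when CM 2 chose and CM 1 was set beside DMEM. The causes of these moves were not tested.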
